A study of Sus scrofa with 50 samples.

Results

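The epithelial keratins KRT8, KRT18, KRT19 and KRT7 and the keratin-like gene KRT222 were followed through early development in single porcine embryos. These 5 genes were picked by symbol and gene identifier from 36 identifiers with a keratin symbol and 30321 identifiers in all. KRT18 had reads in all 40 morulae and hatched blastocysts and KRT8 in all but 1, and both were almost absent at the 4-cell stage. At the morula stage both were far higher in in vivo developed than in in vitro produced embryos. KRT222 was abundant in morulae of both sources and nearly gone in hatched blastocysts.

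Keratins are the intermediate filament proteins of epithelial cells. A filament is built from pairs of a type I and a type II keratin. KRT8 and KRT7 are type II keratins, and KRT18 and KRT19 are type I keratins that pair with them in simple epithelia. The trophectoderm, the outer layer of the blastocyst that later contributes to the placenta, is the first epithelium of the embryo, and KRT8 and KRT18 are long-used markers of it. The filaments are anchored at desmosomes through desmoplakin, plakoglobin and plakophilins, which bind the desmosomal cadherins.

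The in vivo developed embryos came from German Landrace × Pietrain crossbred gilts inseminated with sperm of a Duroc boar, and were flushed 2 days (4-cell stage, n = 5), 4 days (morula, n = 10) and 6 days (hatched blastocyst, n = 10) after insemination. The in vitro produced embryos came from abattoir oocytes that were matured, fertilized with frozen sperm of that boar and cultured, and were collected 2 days (4-cell stage, n = 5), 4.17 days (morula, n = 10) and 7.25 days (hatched blastocyst, n = 10) after fertilization. The in vitro 4-cell embryos and morulae were taken from cleaved embryos selected earlier in culture. Each library was 1 whole embryo amplified from poly(A) RNA with Smart-seq2, and the gilt or culture experiment of an embryo is not given, so the p-values measure the spread between embryos that may share a gilt or an experiment. Hatched blastocysts and morulae carry a sex label, while 4-cell embryos do not. The study took this label from the Y-chromosome genes DDX3Y, EIF1AY and EIF2S3Y as expressed in these same libraries, so it is not an independent sexing. Since a library holds a whole embryo, fewer keratin-expressing cells and less keratin RNA per cell cannot be told apart.

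Values are reads scaled to the effective library size (CPM), and 49 of the 50 embryos had recoverable whole reads, 4.20 ± 1.29 M per embryo (SD), from 1.44 to 7.71 M. Under 2 M reads were recovered from 3 embryos, the in vivo morula F1 and, of the hatched blastocysts produced in vitro, E4 and D3. The number of genes with reads ranged from 6209 to 13520 in in vivo 4-cell embryos and from 16059 to 17686 in in vitro 4-cell embryos. The study raises reduced RNA quality as possible for the in vivo 4-cell embryos, and kept the sources apart before hatching because of differences in RNA quality. The trophectoderm label was set against 12 transcription factors of that lineage, all 12 of which had reads in the hatched blastocysts of both sources. At the morula stage 12 had reads in vitro and 11 in vivo, and at the 4-cell stage 10 and 8. Having reads thus does not set the hatched blastocysts apart and does not test the label. The summed list had a median of 1245 CPM after hatching in vivo, against 1453 CPM at the morula stage. In vitro these medians were 1318 and 1200 CPM. CDX2 reached 28.9 ± 13.5 CPM (SD, n = 10) in in vivo and 25.4 ± 8.03 CPM in in vitro hatched blastocysts, and GATA3 reached 169 ± 73.8 and 202 ± 70.8 CPM. Of the 12 factors, 10 had a mean over 1 CPM in the hatched blastocysts of each source. From the morula on, 3 were higher and 2 lower (GRHL2 and TFAP2C) of 11 tested in vivo, against 8.95% of all genes called. In vitro 5 were higher and 3 lower (GRHL2, TEAD4 and TFAP2C) of 12, against 20.2% of all genes. The libraries also held inner cell mass and hypoblast transcripts, so the label names the tissue the keratins are known for and not a sorted cell type.

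KRT8 lies on chromosome 5 from 18172423 to 18180277 in Sscrofa11.1, and KRT18 follows 37.4 kb after it, from 18217686 to 18221432. The only annotated gene between them, the lncRNA LOC106506682, had a group mean of 0.0220 CPM in in vivo hatched blastocysts and no read in the other 5 groups. KRT7 lies at the other side of the same type II cluster, from 17553192 to 17570582. Its identifier is annotated only as a non-coding transcript model, so its reads may not represent the protein-coding KRT7 message. KRT19 lies on chromosome 12 from 21115453 to 21119115, and KRT222 from 21768053 to 21778893 on the same chromosome, at the other end of the type I cluster and 5.52 kb from SMARCE1. Of the 35 genes annotated from KRT80 to KRT18, 16 carry a keratin symbol, and only KRT8 and KRT18 had a group mean over 10 CPM in any group. Of the 48 genes from KRT19 to KRT222, 20 carry a keratin symbol and 5 had a group mean over 10 CPM, namely KRT32, KRT19, KRT10, KRT222 and LOC110256009. How reads shared by related keratins or on opposite strands were counted is not given in the sources used here.

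**Figure D1:**
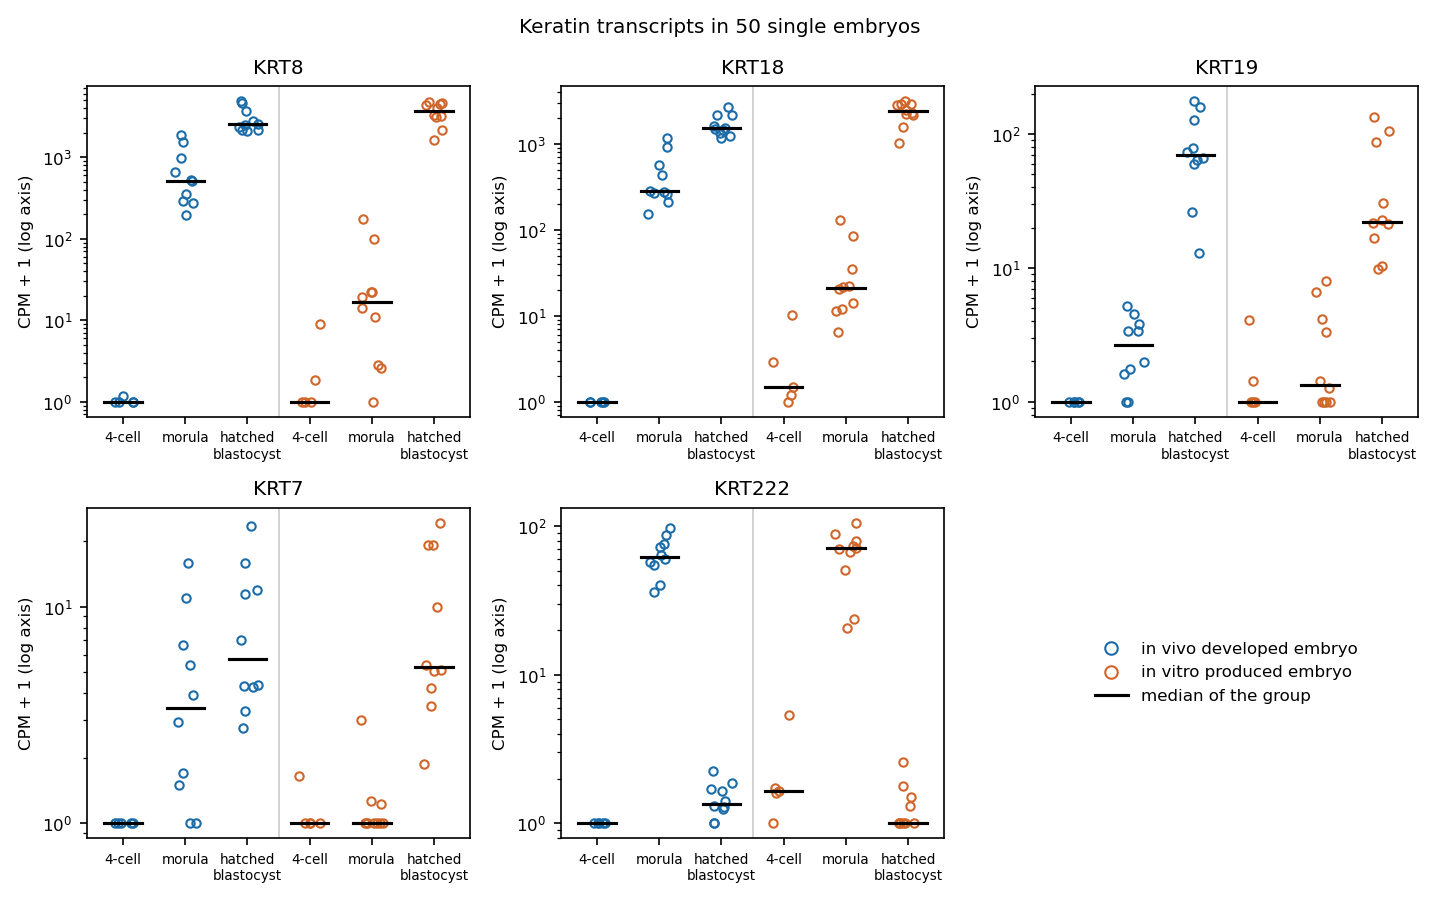
CPM + 1 on a log axis for KRT8, KRT18, KRT19, KRT7 and KRT222 in each of the 50 embryos, by stage and source (blue, in vivo developed, orange, in vitro produced, black line, group median). KRT8 and KRT18 separate the in vivo from the in vitro morulae, while KRT222 is high only in the morulae of both sources.

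Before the morula stage the members were close to absent. In the 5 in vivo 4-cell embryos, KRT18, KRT19, KRT7 and KRT222 were at 0 in every embryo, and KRT8 had 1 read in embryo A1 (0.163 CPM). With 3 reads over the group as the limit that a count of 0 allows, the 4 in vivo 4-cell embryos with recovered reads could have held up to 0.132 CPM. These intervals and floors cover counting error only. In the in vitro 4-cell embryos KRT8 was at 0 in B1, C1 and D1, at 0.876 CPM in A1 and at 8.07 CPM in E1. KRT18 was at 0 in B1, 0.210 CPM in D1, 0.484 CPM in C1, 1.93 CPM in A1 and 9.27 CPM in E1, so E1 held the most of both. KRT222 had 4.38 CPM in A1, between 0.598 and 0.727 CPM in B1, C1 and E1, and 0 in D1. The sources were not tested against each other at this stage.

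In vivo, KRT8 and KRT18 rose between the 4-cell and the morula stage, in all 10 morulae. The KRT8 level of in vivo morulae had its lowest value in F1 (194 CPM), a median of 514 CPM and its highest value in H2 (1899 CPM). The KRT18 level ran from 152 CPM in F1 over a median of 280 CPM to 1185 CPM in H2. No morula overlapped with a 4-cell embryo for either gene, and F1 and H2 were the extremes of both. The share of all genes without overlap is not given, here or in the other comparisons, so a lack of overlap only describes these embryos. Against the 1 read in 4-cell embryos the KRT8 rise was 16427-fold (95% exact Poisson interval 2948 to 648826), and KRT18 was at least 3451-fold higher than the floor of 3 reads over the group. On the log2(CPM + 1) scale the rises were 9.08 ± 0.49 (SE, limma adjusted p = 4.31e-11) for KRT8 and 8.53 ± 0.45 (adjusted p = 3.31e-11) for KRT18. Fold changes on this scale depend on the added 1 CPM where a group is at 0, and understate the change of low genes. KRT222 was also a DEG, with no overlap between the groups, and was at least 480-fold higher in morulae (log2 difference 5.95 ± 0.37, adjusted p = 1.98e-10). KRT19 and KRT7 were listed at 0 in 2 of 10 in vivo morulae each and at up to 4.24 and 14.97 CPM in the others, with adjusted p = 0.0177 and 0.0257, short of the threshold of 0.001. The DEGs of this step were 22.8% of the 19834 genes tested, against 3 of the 5 members, and all 5 members entered the test through the morulae alone.

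In vitro, KRT18 and KRT222 rose over the same step and KRT8 did not pass the test. The KRT8 level of in vitro morulae was 0 in G1, 1.61 CPM in F1 and 1.79 CPM in D2, had a median of 15.8 CPM and reached 99.4 CPM in E2 and 176 CPM in B2. KRT18 was lowest in G1 (5.53 CPM), had a median of 20.1 CPM and was highest in E2 (83.9 CPM) and B2 (130 CPM). G1 was thus lowest and B2 highest for both genes, and 7 of 10 morulae for KRT8 and 9 of 10 for KRT18 exceeded all in vitro 4-cell embryos. The log2 difference was 3.399 ± 0.62 for KRT18 (adjusted p = 6.35e-05) and 2.93 ± 0.93 for KRT8 (adjusted p = 0.00957). The KRT18 call was not reached with edgeR on recovered reads or with 5 CPM added in place of 1. KRT222 ran from 19.6 CPM in B2 to 105 CPM in E2 around a median of 69.9 CPM, with no overlap with the 4-cell embryos (log2 difference 4.94 ± 0.41, adjusted p = 1.44e-09). Of all genes tested in this step 38.7% were DEGs, against 2 of the 5 members. KRT19 (log2 difference 0.53, adjusted p = 0.392) and KRT7 (0.08, adjusted p = 0.783) were not DEGs, and KRT7 was at 0 in 7 of 10 morulae.

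In vivo, KRT8, KRT18 and KRT19 rose and KRT222 fell between the morula and the hatched blastocyst. KRT8 increased 4.11-fold to 2977 ± 1038 CPM (SD, n = 10), from 724 ± 580 CPM, with a lowest hatched blastocyst (G3, 2101 CPM) above the highest morula. KRT18 increased 3.72-fold to 1697 ± 497 CPM, and only the hatched blastocyst F4 (1172 CPM) lay below the morula H2. The log2 differences were 2.35 ± 0.34 (SE, adjusted p = 7.25e-06) and 2.15 ± 0.30 (adjusted p = 4.05e-06). KRT19, which pairs with KRT8 or KRT7 in simple epithelia, appeared later, with a mean of 1.77 CPM in morulae against 83.2 ± 53.6 CPM after hatching, 47.1-fold higher (log2 difference 4.81 ± 0.42, adjusted p = 2.53e-09). Its level ran from 11.9 CPM in D3 over a median of 68.8 CPM to 176 CPM in H4, all above the morulae. KRT222 fell from 63.5 ± 19.2 to 0.474 ± 0.400 CPM, 134-fold lower, and every hatched blastocyst was below every morula (log2 difference −5.44 ± 0.25, adjusted p = 1.53e-14). KRT7 had a median of 2.42 CPM in morulae against 4.70 CPM after hatching, and its difference of 1.04 did not pass the test (95% confidence interval −0.01 to 2.10, adjusted p = 0.145). The DEGs were 8.95% of 18399 genes, against 4 of the 5 members.

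In vitro all 5 members were DEGs in this step, in which 20.2% of 20716 genes were called. KRT8 was 98.8-fold higher in hatched blastocysts, at 3590.4 ± 1088 CPM (SD, n = 10) after 36.4 ± 57.1 CPM in morulae, and KRT18 was 67.4-fold higher, at 2361 ± 663 CPM after 35.0 ± 40.3 CPM. No ranges overlapped for either gene. The log2 differences were 7.98 ± 0.63 (SE, adjusted p = 1.08e-10) and 6.59 ± 0.39 (adjusted p = 5.40e-13). E4 and D3, the 2 embryos with under 2 M reads, had the lowest KRT8 levels of the group, 1638 and 2154 CPM, and the other 8 had 3164 to 4757 CPM. KRT19 increased 23.97-fold to 45.0 ± 45.3 CPM, KRT7 35.3-fold to 8.78 ± 8.09 CPM, and KRT222 was 201-fold lower, at 0.320 ± 0.527 CPM. The KRT7 ranges overlapped, since the hatched blastocyst D3 had 0.870 CPM and the morula E2 had 2.003 CPM. The share of all genes whose ranges do not overlap is not given here, for this step or the other comparisons. The KRT19 level was split, with 3 embryos (C3, E3 and C4) between 85.8 and 133 CPM and the other 7 between 8.77 and 29.6 CPM.

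**Figure D2:**
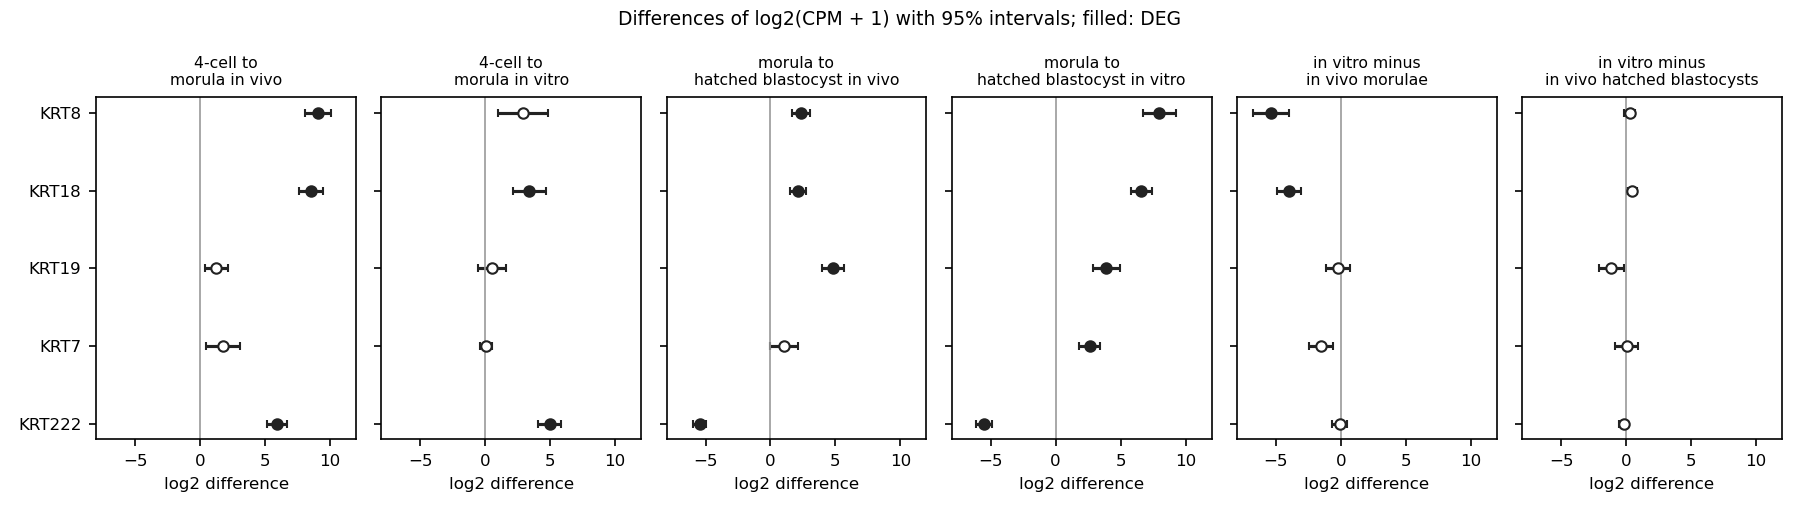
Differences of log2(CPM + 1) with their 95% confidence intervals from limma for the 5 members in 6 comparisons, filled points being DEGs (adjusted p under 0.001 and a difference over 1). KRT8 and KRT18 are DEGs between the sources at the morula stage (−5.37 and −3.98) and no member is a DEG between the hatched blastocysts.

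At the morula stage KRT8 and KRT18 were lower in in vitro produced than in in vivo developed embryos. The KRT8 level was 19.9-fold lower in vitro and the KRT18 level 13.0-fold lower, and the highest in vitro morula, B2 with 176 and 130 CPM, was below the lowest in vivo morula, F1 with 194 and 152 CPM. The share of all genes that separate the sources in this way is not given. The log2 differences were −5.37 ± 0.68 (SE, adjusted p = 9.77e-06) for KRT8 and −3.98 ± 0.45 (adjusted p = 2.26e-06) for KRT18, in the same direction in all 10 in vitro morulae. They were the 2 DEGs among the 5 members, and 2.47% of 20570 genes tested were DEGs. KRT7 had a mean of 4.11 CPM in vivo and 0.249 CPM in vitro, a difference of −1.53 that missed the threshold (95% confidence interval −2.42 to −0.63, adjusted p = 0.0156). KRT222 was at 63.5 ± 19.2 and 64.1 ± 26.8 CPM (SD, n = 10 each), with a log2 difference of −0.08 (95% confidence interval −0.65 to 0.48). The KRT19 difference was −0.21 (95% confidence interval −1.13 to 0.70), at means of 1.77 and 1.88 CPM.

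Other measures also differed between these 2 groups of morulae. The summed level of 13 maternal oocyte transcripts ranged from 14.4 to 47.5 CPM in in vivo and from 77.5 to 2352 CPM in in vitro morulae, and all 13 had reads in both groups. B2, the in vitro morula with the highest KRT8 and KRT18 and the lowest KRT222, held the 2352 CPM, against 77.5 to 338 CPM in the other 9. As B2 held the highest KRT8 of the in vitro morulae, leaving it out could only widen the KRT8 difference between the sources. It was −5.78 without B2, and nothing is concluded from this. The inner cell mass list, of which 7 of 8 genes were measured and all 7 had reads in both groups, ranged from 374 to 1036 CPM in vivo and from 690 to 1484 CPM in vitro. The age at collection, the RNA quality and the source cannot be told apart at this stage, and the part of the maternal and inner cell mass transcripts in the result was not tested.

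The step from morula to hatched blastocyst was larger in vitro than in vivo for KRT8 and KRT18, over steps of unlike length. In vivo the step ran from 4 to 6 days after insemination, and in vitro from 4.17 to 7.25 days after fertilization. The study also saw RNA quality differ between the sources at the morula stage. The parts of time and RNA quality in the result were not tested. In a fit of the 4 groups, the in vitro step exceeded the in vivo step by 5.63 ± 0.77 (SE, log2, adjusted p = 1.19e-06) for KRT8 and by 4.44 ± 0.52 (adjusted p = 5.30e-08) for KRT18. The morulae that enter this test are those compared above, so it repeats their difference together with the small one of the hatched blastocysts. Of 21442 genes 4.49% were called, against these 2 members. For KRT19 the steps differed by −0.92 (95% confidence interval −2.32 to 0.48), for KRT7 by 1.57 (0.20 to 2.93, adjusted p = 0.0994) and for KRT222 by −0.11 (−0.85 to 0.63).

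Between the hatched blastocysts of the 2 sources 0 of the 5 members were DEGs with limma, edgeR or DESeq2. Of 17990 genes tested, limma called 769 (4.27%), edgeR 874 and DESeq2 1060. KRT8 differed by 0.27 on the log2 scale (95% confidence interval −0.18 to 0.71) and KRT222 by −0.19 (−0.57 to 0.18). KRT18 was 1.39-fold higher in vitro, with a log2 difference of 0.46 (0.06 to 0.86) and an adjusted p of 0.0934, and 4 of the 10 in vitro embryos exceeded all in vivo embryos. KRT19 was 1.85-fold lower in vitro, with a difference of −1.13 (−2.09 to −0.18) and an adjusted p of 0.0826. The unadjusted p was under 0.05 for 2 members, KRT18 (0.0259) and KRT19 (0.0218), and for 6030 of the 17990 genes, a similar share. KRT7 differed by 0.04 (−0.88 to 0.95). KRT8 and KRT18 together made up 0.467 ± 0.152% of the CPM of in vivo and 0.595 ± 0.173% of in vitro hatched blastocysts (SD, n = 10 each), after 0.118 ± 0.0915% and 0.00714 ± 0.00968% in the morulae. Markers of other cell types were unequal in the hatched blastocysts. The blood list (5 of 6 genes measured) summed to 1.63 to 19.9 CPM in vivo and 38.3 to 433 CPM in vitro, most of it AIF1, with PTPRC at 0 in vitro. The cumulus and granulosa list (7 of 8 measured) summed to 2.77 to 75.7 CPM in vivo and 0 to 3.60 CPM in vitro, most of it CYP11A1, with FOXL2, INHA and PTX3 at 0 in both. The oviduct and uterine, sperm and fibroblast lists summed to at most 12.8, 5.79 and 4.71 CPM in any morula or hatched blastocyst. The part of these lists in the keratin values was not tested.

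Within the hatched blastocysts of a source, labelled female and male embryos did not give a DEG with limma among 17990 genes in vivo (0%) or in vitro (0%). The unadjusted p was under 0.05 for 385 and 2127 genes, and edgeR called 0 and 0 and DESeq2 1 and 1. In vivo KRT8 was at 2937 ± 1116 CPM in embryos labelled female (SD, n = 4) and 3004 ± 1090 CPM in embryos labelled male (n = 6). In vitro it was at 2612 ± 1267 CPM (n = 3) and 4010 ± 746 CPM (n = 7), with a limma log2 difference of −0.70 (95% confidence interval −1.35 to −0.05) and an adjusted p of 0.386. The group of 3 includes D3 and E4, the 2 shallow libraries, and the third, A4, had 4045 CPM.

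KRT8 and KRT18 went up and down together among the embryos of a group. Pearson's r of log2(CPM + 1) was 0.934 in in vivo morulae, 0.846 in in vitro morulae, 0.952 in in vivo and 0.963 in in vitro hatched blastocysts (n = 10 each). Spearman's rho was 0.879, 0.794, 0.879 and 0.855. In permutation tests adjusted over 8 relations the p of r was 0.000373, 0.00411, 0.000373 and 0.000373, and that of rho was 0.00684, 0.0117, 0.00684 and 0.00824. Without the 2 embryos farthest from the KRT8 median, r was 0.816, 0.648, 0.906 and 0.828. The genes share a library in each embryo, and whole-library effects were not removed.

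**Figure D3:**
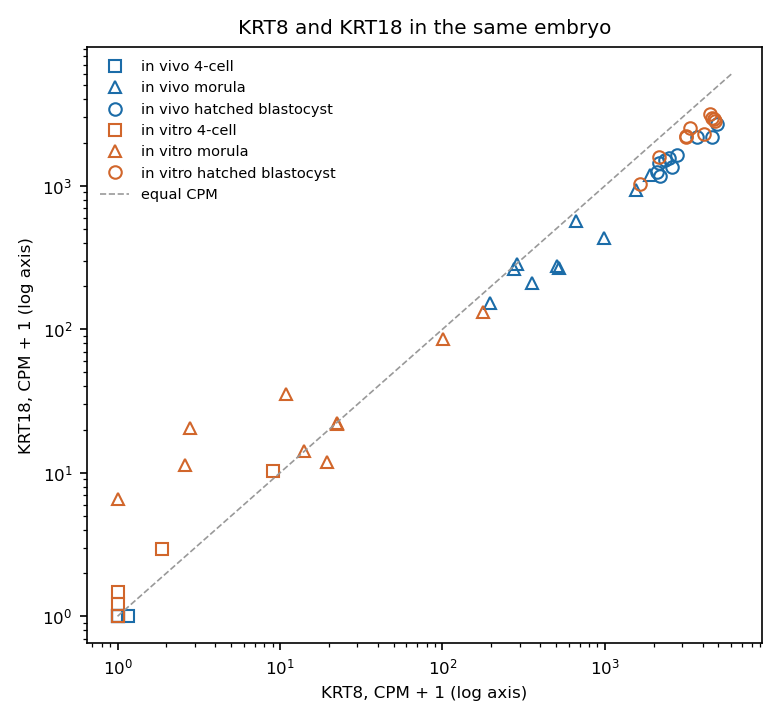
KRT8 (x) against KRT18 (y), CPM + 1 on log axes, for each of the 50 embryos, the symbol giving the stage and the color the source, with the dashed line at equal CPM. Hatched blastocysts and in vivo morulae lie under the line (KRT8 higher), while 6 of 10 in vitro morulae lie on or above it.

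The balance of the pair differed as well. The CPM of KRT8 exceeded that of KRT18 in 10 of 10 in vivo morulae and in 10 of 10 hatched blastocysts of each source, but in 4 of 10 in vitro morulae. In the in vitro morulae D2, F1 and C2 the values were 1.79 and 19.4 CPM, 1.61 and 10.4 CPM, and 9.96 and 34.5 CPM for KRT8 and KRT18, and G1 had KRT18 reads alone. Differences of a ratio between groups do not depend on gene length where the RNA quality of the groups is alike. The study saw RNA quality differ between the sources at the morula stage, and its part in the ratio was not tested. With this limit, the log2 ratio of KRT8 to KRT18, with 1 CPM added to each, was compared between groups. It was 0.59 ± 0.40 in in vivo and −0.80 ± 1.39 in in vitro morulae (SD, n = 10 each), a difference of −1.39 (permutation test, adjusted p = 0.00542 over 12 ratio tests). From there it increased by 1.40 to 0.60 ± 0.14 in in vitro hatched blastocysts (permutation test, adjusted p = 0.00128). In vivo the change to 0.79 ± 0.15 was 0.20 (permutation test, adjusted p = 0.155). Some in vitro morulae were near the floor, with 0 KRT8 reads in G1, 7 in F1 and 8 in D2. Their ratios depend on the added 1 CPM. Under the alternatives, 5 CPM added among them, the morula difference ranged from −1.52 to −1.01 (permutation test, adjusted p of at most 0.0065). In hatched blastocysts the CPM ratio was 1.74 ± 0.178 in vivo and 1.52 ± 0.148 in vitro, and the log2 ratio differed by −0.20 (permutation test, adjusted p = 0.00984), although neither gene was a DEG there.

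The ratios of KRT19 to KRT18 and of KRT7 to KRT8 could be compared in hatched blastocysts, where all 4 genes had reads in every embryo. The log2 ratio of KRT19 to KRT18 was −6.21 ± 1.26 in vitro and −4.62 ± 1.41 in vivo, 1.59 lower in vitro (permutation test, adjusted p = 0.0211). That of KRT7 to KRT8 was −8.90 ± 1.09 and −8.68 ± 1.34, a difference of −0.23 (permutation test, adjusted p = 0.683). In morulae KRT7 and KRT19 had few reads, 10 and 80 over the in vitro group and 198 and 93 over the in vivo group. KRT7 was at 0 in 7 and KRT19 in 4 of 10 in vitro morulae, so the morula ratios follow the added 1 CPM and the level of KRT8 or KRT18, and no test on them is given. Their p-values stay among the 12 ratio tests of the adjustment and so enter the adjusted values. The unadjusted permutation p between the hatched blastocysts was 0.0176 for KRT19 to KRT18 and 0.00656 for KRT8 to KRT18. On group means KRT7 was 16.5-fold and KRT8 19.9-fold lower in in vitro morulae.

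**Figure D4:**
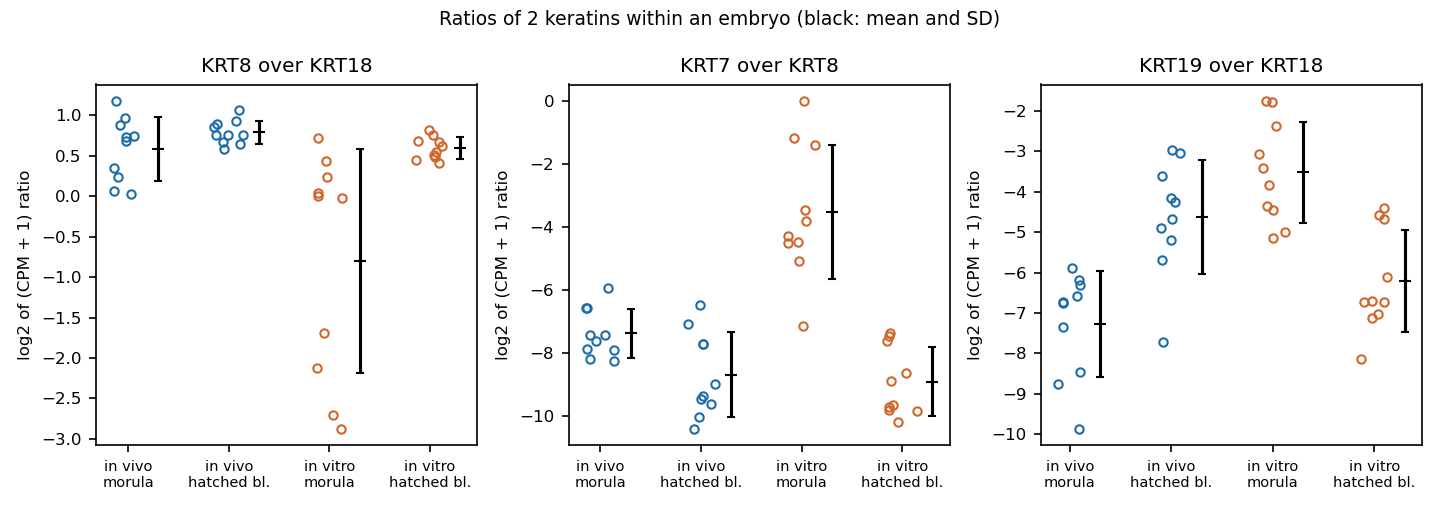
Log2 ratios of (CPM + 1) of KRT8 over KRT18, KRT7 over KRT8 and KRT19 over KRT18 in the 40 morulae and hatched blastocysts (points, embryos, black, mean and SD of 10 embryos). The KRT8 over KRT18 ratio is 0.59 in in vivo and −0.80 in in vitro morulae and lies close together in the hatched blastocysts (0.79 and 0.60), while the morula values of the other 2 ratios follow the added 1 CPM.

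Single embryos differed in how the members went together. Among in vivo hatched blastocysts, D3 had the highest KRT8 (4901 CPM) and the lowest KRT19 (11.9 CPM), while G3 and H4, with the lowest and second lowest KRT8 (2101 and 2151 CPM), had the highest KRT7 (22.4 and 14.9 CPM) and the highest KRT19 (157 and 176 CPM). Among in vivo morulae, B2 and H2 had the highest KRT8 (1550 and 1899 CPM) and the lowest KRT222 (34.8 and 39.5 CPM), and F1, the lowest for KRT8, had the highest KRT222 (96.2 CPM). The in vitro embryos did not all follow this. The in vitro hatched blastocyst C4 had the highest KRT8 (4757 CPM), KRT19 (133 CPM) and KRT7 (23.4 CPM). E4 had the lowest KRT8 and KRT19 of that group. The in vitro morula B2 had the highest KRT8 and the lowest KRT222, but E2, second highest for KRT8, had the highest KRT222 (105 CPM). All these embryos were picked after their values were seen. How KRT8 went with KRT19, KRT7 or KRT222 among them was not tested. The KRT8 level of the in vivo morulae spread 9.78-fold, against 2.33-fold in in vivo and 2.90-fold in in vitro hatched blastocysts.

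The KRT8 level was also set against the mean log2(CPM + 1) of the 12 trophectoderm transcription factors. Pearson's r was 0.530 in in vivo morulae and 0.583 in in vitro morulae, with permutation p-values, adjusted over the 8 relations, of 0.113 and 0.0886, and Spearman's rho was 0.588 and 0.612 (0.0791 and 0.0754). In in vivo hatched blastocysts r was 0.757 (permutation test, adjusted p = 0.0126) and rho 0.818 (0.0110), and r was 0.783 without the 2 farthest embryos. In in vitro hatched blastocysts r was 0.891 (permutation test, adjusted p = 0.00411) and rho 0.794 (0.0117), but r was 0.466 without E4 and D3, so the relation rests on the 2 shallow embryos. Without the 2 farthest embryos r was 0.268 and 0.134 in in vivo and in vitro morulae. Of the 12 factors, GATA2 and TFAP2A, regulators of trophoblast genes, were DEGs between the morulae, both lower in vitro, by 3.45 and 3.35 on the log2 scale (adjusted p = 6.57e-05 and 0.000432), and 0 were higher. GATA2 was at 20.9 ± 13.5 CPM in vivo and 0.885 ± 1.60 CPM in vitro. The TFAP2A call was lost when any of 7 of the 20 morulae was left out (in vitro C2 or F2, or in vivo A2, C2, E2, H1 or H2), with adjusted p of at most 0.00121.

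Other keratins were sparse. Of the 31 other keratin identifiers, 8 were at 0 in every embryo (KRT1, KRT2, KRT3, KRT4, KRT15, KRT77, KRT78 and KRT84), and 5 exceeded 10 CPM in at least 1 embryo. KRT10, the type I keratin of differentiating epidermis, rose in the first step, 4-cell embryo to morula, in vivo (log2 difference 5.199, adjusted p = 2.45e-08) and in vitro (5.14, adjusted p = 4.37e-12), to 41.1 ± 22.0 and 57.4 ± 10.4 CPM (SD, n = 10). It fell in vitro by 1.65 to 18.2 ± 6.65 CPM in hatched blastocysts (adjusted p = 5.61e-08), and was at 31.2 ± 6.43 CPM in in vivo hatched blastocysts. KRT32, a hair keratin, rose to the morula by 3.47 in vivo (adjusted p = 1.47e-05) and 2.93 in vitro (adjusted p = 6.85e-07), and was at 17.1 ± 9.16 and 26.0 ± 12.2 CPM in hatched blastocysts. KRT10 and KRT32 were at 0 in all in vivo 4-cell embryos, so both entered the in vivo test of the first step through the morulae alone. KRT28, a keratin of the inner root sheath of the hair, fell by 1.44 from the in vitro morula to the hatched blastocyst (adjusted p = 0.000463), at means of 3.02 and 0.558 CPM. This call was lost without the in vitro morula D2 or H1 (adjusted p of at most 0.00102), without the 2 shallow embryos, with 5 CPM added, in 1 fit of all 6 groups, with DESeq2 and with edgeR (adjusted p of at most 0.0136). KRT27 and KRT25, also of the inner root sheath, were not DEGs and reached at most 11.3 and 10.96 CPM. KRT28 and KRT25 overlap annotated lncRNAs, so their reads may be shared. None of these 5 was a DEG between the sources at either stage.

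Genes that anchor keratin filaments were taken from a list of 18 desmosome and linker genes. In the first step in vivo 5 were higher (DSC2, DSG2, JUP, PERP and PKP2) and 0 lower of 17 tested, against 22.8% of all genes called, with a list median of 0.85 against 0.21 over all genes. The count is thus near that of all genes. DSC2 and DSG2, desmosomal cadherins, were at 0 in all in vivo 4-cell embryos and at 294 ± 261 and 169 ± 108 CPM in morulae, and PKP2, a plakophilin that links cadherins to desmoplakin, was at 0 and 215 ± 67.1 CPM. PERP was also at 0 in all in vivo 4-cell embryos, so DSC2, DSG2, PKP2 and PERP entered the test through the morulae alone. In vitro 7 were higher and 3 lower (DST, ITGA6 and PPL) of 17, against 38.7% of all genes, with medians of 0.11 and −0.14. PKP2 rose there from 1.26 ± 2.10 to 97.9 ± 31.3 CPM, JUP (plakoglobin) from 2.49 ± 1.99 to 75.6 ± 34.9 CPM, and DSC2 from 3.15 ± 2.55 to 68.6 ± 20.8 CPM.

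In the later step in vivo 2 linker genes were higher and 1 lower of 17, against 8.95% of all genes, with medians of 0.55 and 0.01. PERP, a desmosome-associated membrane protein, rose from 86.5 ± 41.3 to 460 ± 102 CPM, PKP3 from 0.263 ± 0.524 to 7.30 ± 2.40 CPM, and DST, a plakin that ties keratin to hemidesmosomes, fell from 128 ± 161 to 10.8 ± 7.64 CPM. In vitro 8 were higher and 1 lower of 18, against 20.2% of all genes, with medians of 0.87 and −0.11. DSP (desmoplakin, which binds keratin filaments directly) rose from 9.06 ± 7.01 to 135 ± 38.4 CPM, DSG2 from 27.7 ± 17.5 to 293 ± 45.5 CPM, and PERP from 50.1 ± 34.4 to 511 ± 104 CPM.

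Between the morulae 3 linker genes were lower in vitro and 0 higher of 17, against 2.47% of all genes, with a median of −0.17 against 0.11 over all genes. DSG2 differed by −2.50 (adjusted p = 0.000123), DSC2 by −1.76 (adjusted p = 0.000371) and PKP2 by −1.13 (adjusted p = 0.000482). The PKP2 call was lost when any of 10 of the 20 morulae was left out (in vitro C2, D2, F1, F2 or G1, or in vivo C2, E2, F1, H1 or H2), with adjusted p of at most 0.00132. DSG2 overlapped between the sources, from 22.5 to 388 CPM in vivo and from 8.05 to 61.6 CPM in vitro. DSP was not a DEG, at means of 47.3 and 9.06 CPM (log2 difference −2.03, adjusted p = 0.0111), and JUP was at 89.8 and 75.6 CPM. Between the hatched blastocysts DSG3 and DST were higher in vitro, at 5.16 against 1.10 CPM and 35.5 against 10.8 CPM, and PKP4 was lower, at 14.4 against 36.9 CPM, of 17 tested and against 4.27% of all genes, with list and all-gene medians of 0.29 and −0.01. For 5 of the 18 (DSC2, DSG2, DSG3, ITGA6 and PKP2) the step to the hatched blastocyst was larger in vitro in the test of the difference, and for 0 smaller, against 4.49% of all genes, with medians of 0.63 and −0.12. The largest of these differences were 2.65 for ITGA6 (adjusted p = 0.000972), 2.40 for DSG2 (adjusted p = 0.000128) and 2.07 for DSC2 (adjusted p = 4.09e-05). The limits of time and RNA quality given above for this test hold here too.

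**Figure D5:**
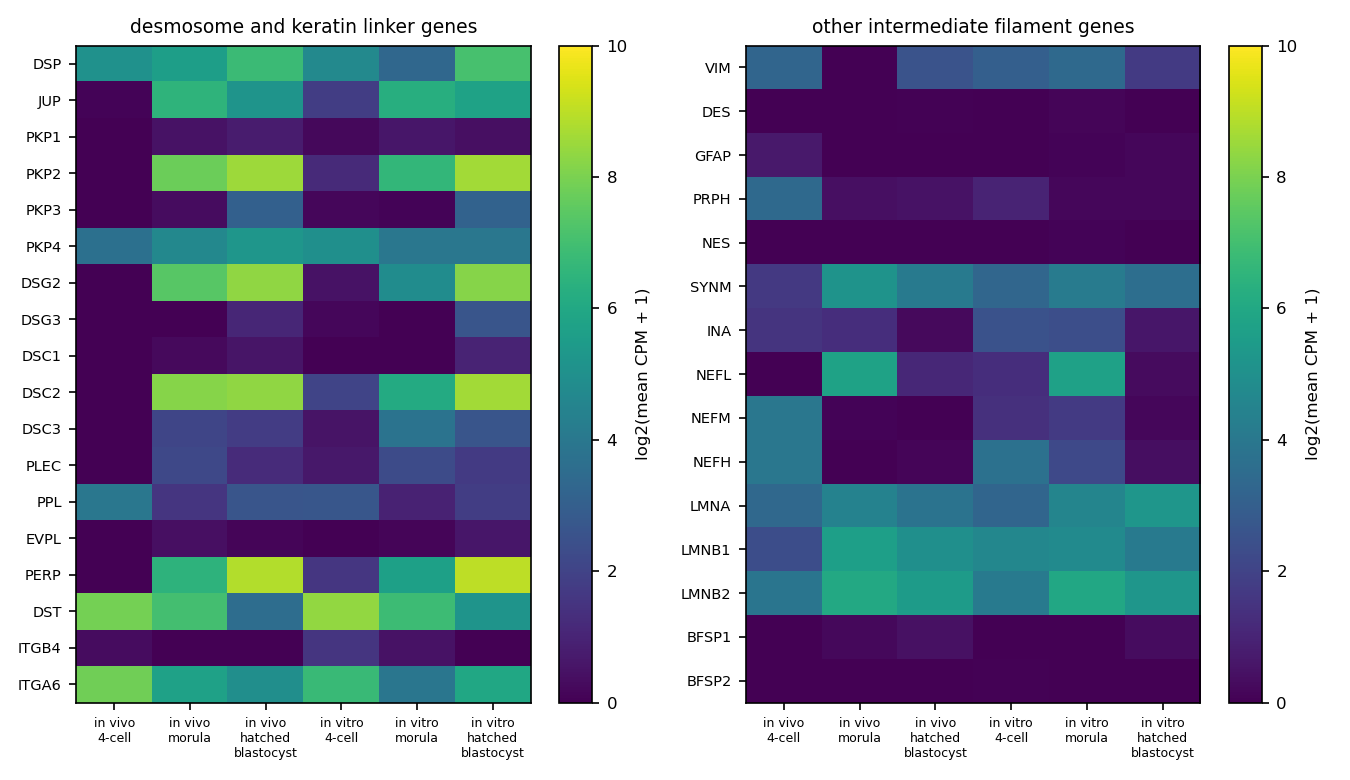
Color maps of log2(mean CPM + 1) by group (columns) for the 18 desmosome and keratin linker genes and 15 other intermediate filament genes (rows). DSC2, DSG2 and PKP2 are dark in the in vivo 4-cell embryos and bright from the morula on, and NEFL is bright in the morulae of both sources.

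Of the list of 15 other intermediate filament genes, 3 were higher and 2 lower of 12 tested in the first step in vivo, and 2 higher and 0 lower of 13 tested in vitro, where 22.8% and 38.7% of all genes were called. In the later step 1 was higher and 1 lower of 9 tested in vivo, and 0 higher and 1 lower of 14 tested in vitro, against 8.95% and 20.2% of all genes. The list medians of these steps were 0.20, 0.08, −0.40 and −0.32, and those of all genes 0.21, −0.14, 0.01 and −0.11. NEFL, a neurofilament subunit, was called in all 4 steps, up and then down as KRT222 was. It rose to 53.4 ± 59.2 CPM in in vivo and 52.4 ± 29.4 CPM in in vitro morulae, and fell to 1.17 ± 0.916 and 0.239 ± 0.453 CPM in hatched blastocysts (log2 differences −4.00 and −5.26, adjusted p = 1.14e-06 and 1.31e-12). VIM, the intermediate filament protein of mesenchymal cells, fell in vivo from 8.57 ± 7.64 CPM in 4-cell embryos to 0.0236 CPM in morulae (log2 difference −2.68, adjusted p = 0.000132) and rose to 4.84 ± 3.19 CPM in hatched blastocysts (log2 difference 2.34, adjusted p = 2.23e-07). NEFL was at 0 in all in vivo 4-cell embryos, and VIM was at most at 0.236 CPM in in vivo morulae. In vivo, NEFL thus entered the test of the first step through the morulae alone, and VIM entered both tests through its higher group alone. In vitro VIM was not a DEG in either step, at 7.19 ± 5.71, 9.83 ± 16.5 and 2.21 ± 3.03 CPM. SYNM and LMNB1 rose to the in vivo morula, by 4.35 and 4.24, and LMNB2 to the in vitro morula, by 1.95. Between the sources 0 were DEGs at the morula stage, and at the hatched blastocyst stage only LMNA, a nuclear lamin, was, at 37.0 ± 14.1 CPM in vitro and 13.1 ± 3.95 CPM in vivo (log2 difference 1.35, adjusted p = 9.62e-05). In the test of the difference of the later step 0 of 14 were called.

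The genes most like the members over the 50 embryos were ranked by Pearson's r of log2(CPM + 1) among 12795 genes, as a description, since the embryos of a stage share most of this pattern. For KRT8 the first was KRT18 (r = 0.988, and 0.868 for the residuals from the 6 group means), followed by HEBP1, a heme-binding protein (0.972 and 0.682), CST6, a cysteine protease inhibitor (0.968 and 0.655), PDPN, the membrane glycoprotein podoplanin (0.967 and 0.627), and ENDOD1 (0.9496 and 0.483). For KRT18 they were KRT8, HEBP1, CST6, PDPN and ABCG2, an efflux transporter of the placenta (r from 0.961 to 0.988). For KRT19 they were TMPRSS2, a membrane serine protease (r = 0.902), UPTI, a plasmin and trypsin inhibitor (0.901), GPR157 (0.895), PCTP, a phosphatidylcholine carrier (0.894), and PLAC9 (0.894), with residual r from 0.187 to 0.589. HEBP1 had 198 CPM in in vivo and 31.1 CPM in in vitro morulae, and 1007 and 1064 CPM after hatching. UPTI was at 3.06 and 2.56 CPM in morulae and 228 ± 329 and 212 ± 114 CPM (SD) after hatching, in vivo and in vitro. Against each other, KRT8 and KRT19 had an r of 0.762 over all embryos and 0.142 for the residuals, and KRT8 and KRT222 −0.155 and −0.120.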

How the data were processed

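The 50 libraries, 1 per porcine embryo, were trimmed with Trim Galore, aligned to Sus scrofa 11.1 with HISAT2, checked with FastQC and MultiQC and compared with edgeR by the authors. The counting tool, the versions and the annotation release are not given in the sources used here. The signal deposited per embryo is CPM of the effective library size. In the deposited tables, log2 fold changes and log2 mean CPM, a likelihood ratio score, and p-values and FDR values hold the comparisons of the authors and were not used.

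Reads were recovered from the step of 1 read, whole to within 0.1 reads for 100% of values in 49 embryos. The in vivo 4-cell embryo B1 could not be recovered and was left out of the edgeR and DESeq2 fits. As the files hold CPM, limma 3.58.1 (R 4.3.3) with a variance trend was fitted to log2(CPM + 1) of genes over 0.5 CPM in at least 1 embryo compared. All 5 members passed this filter in every comparison. DEGs were genes with a p under 0.001, adjusted over all genes by Benjamini and Hochberg, and an absolute log2 difference over 1. The fits were tested on simulated data. Ratios and correlations were tested by 2-sided permutation (100000 resamples).

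Alternatives were edgeR 4.0.16 and DESeq2 1.42.0 on recovered reads, added CPM of 0.25 and 5, no filter, over 1 CPM in 5 embryos, 1 fit of all 6 groups, a replicate block, each embryo (each morula for the step to the hatched blastocyst) left out in turn, and, chosen after seeing the data, embryos over 2 M reads. The members and gene lists were chosen with earlier results of these data known. Named were the members, other keratins over 10 CPM in an embryo, the 3 DEGs with the largest change per list and comparison, and the 5 annotated genes most like KRT8, KRT18 and KRT19 among genes over 0.5 CPM in at least 10 embryos. DSP, JUP and the listed transcription factors were named after their values were seen. Keratin sequences and promoters were not analysed here.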

Additional observations from a re-analysis of the deposited data

Results flagged for a closer look

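In 8 of the 26 member and group combinations with 4 to 10 embryos, 1 embryo lay far from the others by Dixon's test (about 1 in 20 groups by chance for normally distributed values). Most of these groups were at or near 0 reads, where that rate does not hold, so nothing is read from the number of such embryos. In vivo 4-cell embryo A1 had 0.163 CPM of KRT8, a single read, while the other 4 embryos had 0. In vitro 4-cell embryo E1 had 8.07 CPM of KRT8 (the next embryo had 0.876) and 9.27 CPM of KRT18 (next 1.93). In vitro 4-cell embryo B1 had 3.08 CPM of KRT19 (next 0.420) and 0.659 CPM of KRT7 (next 0), and A1 had 4.38 CPM of KRT222 (next 0.727). The in vitro morula E2 had 2.003 CPM of KRT7 (next 0.261). The in vitro hatched blastocyst E4, with under 2 M reads, had 1.59 CPM of KRT222 (next 0.790).

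The step from morula to hatched blastocyst differed between the sources, by the interaction term of a limma fit of the 4 groups, for KRT8 (5.63 on the log2 scale, adjusted p = 1.19e-06) and KRT18 (4.44, adjusted p = 5.30e-08). The steps were of unlike length, and the RNA quality limit of the morulae holds here too.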

How the results depend on the processing

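Of 791 values of a member under an alternative, 765 kept the direction and the side of the threshold, and the causes of the others were not tested. In the first step (4-cell embryo to morula) in vivo, DESeq2 also called KRT19 (5.73) and KRT7 (6.91), so 5 members. In vitro, KRT18 was not called with edgeR (4.24) or 5 CPM added (2.08), which left 1 member under each, KRT8 was called in 1 fit of all 6 groups (2.93), and KRT7 ranged from −0.077 to 0.22 with an embryo left out. In the comparison of morulae by source, KRT19 changed sign with DESeq2 (0.16), edgeR (0.045) and a replicate block (0.053), and KRT222 with DESeq2 (0.092), edgeR (0.035) and an embryo left out (−0.18 to 0.083). In hatched blastocysts by source, KRT7 changed sign with the block (−0.26) and an embryo left out (−0.16 to 0.25). The KRT222 interaction was 0.025 with 5 CPM added.

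Embryos that share a name code were not paired by it. Of 6 shared codes in hatched blastocysts 0 and of 8 in morulae 2 gave a correlation over 0.1 (−0.279 to 0.0617 and −0.0764 to 0.262), and 0 and 1 embryos correlated best with their own code. With the replicate block on these codes the morula differences were −5.36 for KRT8 and −3.72 for KRT18, 0 members were called, and DEGs over all genes were 3 (morulae) and 0 (hatched blastocysts), against 509 and 769.

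Other DEG counts moved over 1.5 times. They were 8055 with 1 fit of 6 groups and 2920 with edgeR, against 4521, for the first step in vivo. They were 1013 with 1 fit and 1282 with DESeq2 for the morulae, and 304 with 1 fit and 423 with 5 CPM added for the hatched blastocysts. The median log2 difference of all genes moved by over 0.1 in these cases. In the first step in vivo it was 0.21, and 0.75 with DESeq2, 0.79 with edgeR, 1.08 for genes over 1 CPM in 5 embryos, and 0.48 and 0.05 with 0.25 and 5 CPM added. In vitro it was −0.14, and −0.37 with DESeq2 and −0.25 with 0.25 CPM added. In the later step it was 0.01 in vivo, and −0.16 with DESeq2 and −0.13 with edgeR, and −0.11 in vitro, and −0.45 and −0.39. Between the morulae it was 0.11, and 0.30, 0.23 and, with 0.25 CPM added, 0.22, and for the interaction −0.12, and −0.25 with 0.25 CPM added. Higher and lower DEGs were 1547 and 1373 with edgeR (2962 and 1559 with limma) in the first step in vivo, 1046 and 1093 with DESeq2 and 817 and 740 with edgeR (1069 and 577) in the later step in vivo, and 538 and 431 and 406 and 262 (384 and 579) for the interaction. At these depths a value under 1 CPM is a few reads, so KRT7 and KRT19 in morulae are limited by depth.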
